A study of Mus musculus with 12 samples.

Results

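The genes described here code for the machinery that carries newly made proteins from the endoplasmic reticulum (ER) to the Golgi apparatus and returns escaped material to the ER. The set held 53 genes, given by a list of names: 12 of the COPII coat and its assembly, 11 of the COPI coat and ARF, 7 p24 cargo receptors, 3 cargo lectin genes (Lman1, Lman2 and the partner Mcfd2), 3 KDEL receptors, 5 TRAPP subunits, 6 SNAREs, 4 tethers and golgins and 2 transcription factors. All 53 were among the 14645 genes tested, of 18193 genes with a probe set for that gene alone, and 99 probe sets in all belonged to them. Each gene was read from the probe set with its highest mean level over the 12 arrays.

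Expression was measured on Affymetrix arrays in cells sorted from the prostate of adult male C57BL/6 mice, which underwent surgical castration when 8 weeks old or stayed intact, with tissue taken 4 weeks afterwards. Luminal cells were sorted as lineage-negative, EpCAM-positive and low for CD49f (integrin alpha 6), and basal cells as lineage-negative, EpCAM-positive and high for CD49f. The 4 groups were luminal and basal cells of intact mice and luminal and basal cells of castrated mice, with 3 arrays each from distinct sets of mice, and the number of animals in a set was not stated. All groups shared the strain, the sex, tissue dissociation, sorting and an amplification of RNA before labelling. The castrated groups show a single time after surgery.

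COPII is the coat that buds vesicles from the ER: the GTPase Sar1 recruits Sec23 and Sec24, which select cargo, and Sec13 and Sec31 form the outer cage. COPI is the coat that returns vesicles to the ER, recruited by the GTPase Arf1, and KDEL receptors and p24 proteins ride in these vesicles. TRAPP, p115 (Uso1) and the golgins tether arriving vesicles, and SNAREs fuse them with the target membrane. Luminal cells of the prostate are secretory cells that secrete the proteins of prostatic fluid, whereas basal cells sit under them against the basement membrane. The transcription factors XBP1, ATF6 and the CREB3 family are known to raise many genes of this pathway when the secretory load of a cell is high.

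Promoters of the members were examined for sequences that these factors are known to read. RefSeq promoter windows (build GRCm38.p6, 250 bases before to 50 bases after a gene's start) were found for 44 of the 53 members. The core of the unfolded protein response element, TGACGTGG, occurred on either strand in 7 of these 44 members (15.9%), against 1.02% of 11725 tested genes with a window and 0.714% of all 27025 genes with a window. The stretches that hold it are shown here because members of different function share it, with the match in capitals (TGACGTGG, or CCACGTCA where the match lies on the other strand), each written 5′ to 3′ along the gene. Stx5a has 2 matches, and the stretch around its second overlaps that around its first.
Sec24d (chr3:123267444-123267503, plus strand): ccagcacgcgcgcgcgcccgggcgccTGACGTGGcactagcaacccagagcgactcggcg
Copb1 (chr7:114254675-114254734, minus strand): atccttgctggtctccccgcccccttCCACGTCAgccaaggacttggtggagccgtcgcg
Copb2 (chr9:98563698-98563757, plus strand): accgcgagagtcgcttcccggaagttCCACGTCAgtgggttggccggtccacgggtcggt
Arf1 (chr11:59228213-59228272, minus strand): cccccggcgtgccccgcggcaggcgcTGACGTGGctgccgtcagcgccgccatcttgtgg
Sec23a (chr12:59011978-59012037, minus strand): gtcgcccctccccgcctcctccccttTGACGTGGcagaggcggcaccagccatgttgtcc
Kdelr3 (chr15:79516352-79516411, plus strand): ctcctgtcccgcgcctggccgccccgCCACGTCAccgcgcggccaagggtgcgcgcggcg
Stx5a (chr19:8741407-8741466, plus strand): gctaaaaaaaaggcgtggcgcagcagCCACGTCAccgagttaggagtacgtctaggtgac
Stx5a (chr19:8741437-8741473, plus strand): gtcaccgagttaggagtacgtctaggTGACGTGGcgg
These genes code for coat subunits of COPI (Copb1, Copb2) and COPII (Sec23a, Sec24d), the GTPase Arf1, a KDEL receptor (Kdelr3) and the Golgi SNARE syntaxin 5 (Stx5a). The shorter ACGTGG, which lies within TGACGTGG, occurred in 23 of 44 members (52.3%), against 12.7% of tested genes and 9.40% of all genes. TGACGT, which the longer core also contains and which CREB3 family factors are known to bind, occurred in 17 of 44 (38.6%), against 12.04% of tested genes and 8.37% of all genes. The ER stress response element (CCAAT, 9 bases of any kind, then CCACG) was found in 0 of 44 members and in 0.154% of tested genes, so these letters were not in the windows read. Median GC content was 59.7% in members' windows, 60% in those of tested genes and 52.7% in all windows. A match of letters is a description, and binding was not measured.

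4 more windows are shown whole, with ACGTGG or its reverse complement CCACGT in capitals. They belong to the cargo receptors Tmed3 and Tmed9, the cargo adaptor Mcfd2 and the tether Uso1, which are described with their values further on and hold the shorter motif without the longer core.
Tmed3 (chr9:89704994-89705293, minus strand): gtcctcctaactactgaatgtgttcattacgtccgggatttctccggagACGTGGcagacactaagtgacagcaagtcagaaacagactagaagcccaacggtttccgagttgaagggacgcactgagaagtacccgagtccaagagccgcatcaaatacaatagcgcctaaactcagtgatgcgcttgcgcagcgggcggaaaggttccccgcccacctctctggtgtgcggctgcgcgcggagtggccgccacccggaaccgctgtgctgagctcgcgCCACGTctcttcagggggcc
Tmed9 (chr13:55592885-55593184, plus strand): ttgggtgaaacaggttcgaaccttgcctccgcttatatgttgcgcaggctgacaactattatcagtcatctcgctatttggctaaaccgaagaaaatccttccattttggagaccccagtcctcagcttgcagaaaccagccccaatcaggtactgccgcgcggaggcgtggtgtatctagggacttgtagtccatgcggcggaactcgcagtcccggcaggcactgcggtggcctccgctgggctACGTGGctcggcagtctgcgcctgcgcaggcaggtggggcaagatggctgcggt
Mcfd2 (chr17:87265898-87266197, minus strand): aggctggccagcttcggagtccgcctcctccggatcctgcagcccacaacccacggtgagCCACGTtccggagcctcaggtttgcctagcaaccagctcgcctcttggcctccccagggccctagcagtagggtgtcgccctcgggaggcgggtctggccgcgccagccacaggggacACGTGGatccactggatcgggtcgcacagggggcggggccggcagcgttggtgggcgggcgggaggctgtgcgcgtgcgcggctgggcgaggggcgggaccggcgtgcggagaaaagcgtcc
Uso1 (chr5:92137688-92137987, plus strand): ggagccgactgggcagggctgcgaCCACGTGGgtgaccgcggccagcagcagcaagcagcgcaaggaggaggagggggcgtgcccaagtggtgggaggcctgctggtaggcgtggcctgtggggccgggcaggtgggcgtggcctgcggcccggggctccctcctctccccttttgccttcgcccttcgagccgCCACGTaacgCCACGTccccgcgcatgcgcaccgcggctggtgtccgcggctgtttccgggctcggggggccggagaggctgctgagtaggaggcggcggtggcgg
Uso1 held 4 matches, of which an overlapping pair on opposite strands reads CCACGTGG, Mcfd2 and Tmed3 held 2 each, and Tmed9 held 1 that spans its start.

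The identity of the sorted cells and the quality of the arrays were checked against markers and control probe sets. Basal markers were low in luminal cells: Krt5, a keratin of basal cells, gave 20.0 to 489 on intact luminal arrays, 5.89 to 62.7 on castrated luminal arrays and 15237 to 31827 on basal arrays, and all 10 basal markers were lower in luminal than in basal cells in intact and in castrated mice. The summed signal of 11 luminal markers was 300830 to 312910 before and 150610 to 191160 after castration in luminal cells, and 88766 to 103090 before and 111190 to 133690 after it in basal cells. A sum follows its brightest genes, and single markers moved both ways. After castration 4 of the 11 were called lower and 1 higher in luminal cells (median log2 difference -0.36, 5.86% of all genes called). In basal cells 4 were called lower and 2 higher (median 0.33, 2.62% of all genes called). Summed signal of 10 fibroblast markers was 7922 to 14440 before and 776 to 979 after castration in luminal cells, and 40314 to 51596 before and 23936 to 29496 after it in basal cells, with none of the defining genes at 0. Summed signal of 10 leukocyte markers was 10374 to 12358 before and 1616 to 4935 after castration in luminal cells, and 699 to 1340 before and 2420 to 4839.5 after it in basal cells. Cd52, a surface antigen of lymphocytes that other cells can also express, made up most of the sum in intact luminal cells (9749, 9602 and 11519), and the defining leukocyte genes Ptprc and Laptm5 read 0.594 to 89.1 and 13.2 to 101 over the 12 arrays. Seminal vesicle genes summed to 238650 to 394830 in intact luminal cells and 21239 to 40350 in castrated luminal cells, and to 27368 to 42866 and 3576 to 5331 in intact and castrated basal cells. The part of these markers in the results below was not tested, and in sorted bulk RNA fewer cells of a type and less RNA per cell cannot be told apart. As a sign of RNA quality, the 3′ over 5′ ratio of the Gapdh controls was 4.18 to 8.70 over the 12 arrays. For Actb this ratio was 0.781 to 0.95 before and 1.08 to 1.11 after castration in luminal cells, without overlap, and 0.938 to 0.986 and 0.943 to 1.08 in basal cells, and its part in the castration results was not tested. Replicate arrays correlated at 0.863 to 0.967 across genes within groups, and replicate 3 had the lowest weight within its group in all 4 groups when arrays were weighted by their fit.

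All 53 members were above the 40th percentile of signal on each array of both luminal groups, 51 were so on each intact basal array and 49 on each castrated basal array. Creb3l1 was below that level on all 3 castrated basal arrays. Signal is a scaled brightness of a probe set, in arbitrary units, and a brighter probe set of another gene does not show more RNA.

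**Figure D1:**
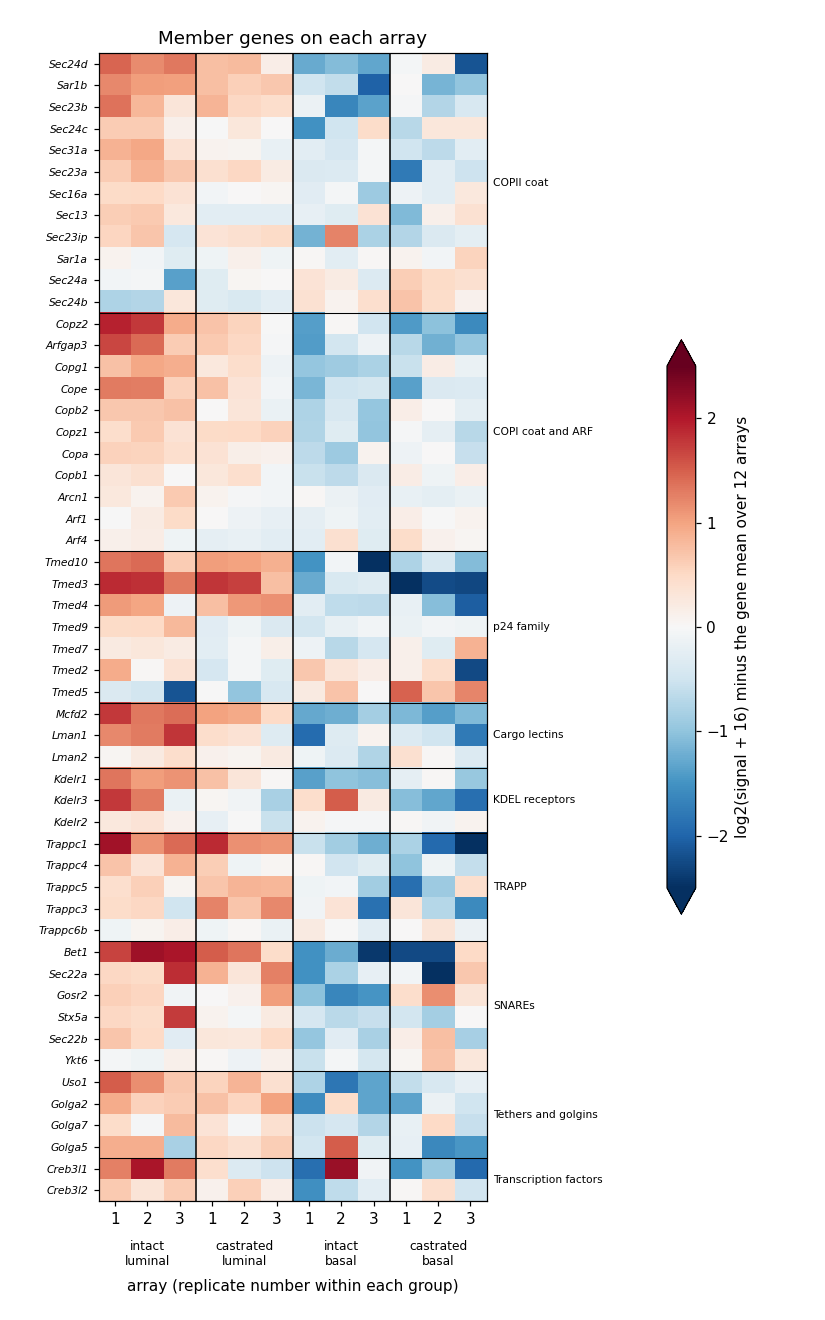
Level of each member on each of the 12 arrays, as log2(signal + 16) minus the gene's mean over all arrays (colour), with genes in rows by function and arrays in columns by group. Most rows are red on the 3 intact luminal arrays and blue on the basal arrays, Tmed5 and Sec24b run the other way, and single arrays stand apart for genes such as Creb3l1 on intact basal array 2.

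The comparison of luminal with basal cells in intact mice asks how the transport machinery differs between the secretory cell and its basal neighbour. In intact mice 25 of the 53 members were higher in luminal cells, 0 were lower and 28 were not called, at a limma adjusted p below 0.05. Over all genes tested, 19.5% were called, 11.0% higher and 8.45% lower in luminal cells, against 47.2% of the members. The median log2 difference was 0.99 over the members and 0.07 over all genes, and 49 members were positive. The 3 luminal and 3 basal arrays did not overlap for 38 members, 37 of them higher in luminal cells (71.7% of members, against 32.0% of all genes, 18.0% higher in luminal cells). Members varied less between replicate arrays than all genes did. Their median SD on the log2 scale was 0.29 against 0.58 in intact luminal cells and 0.36 against 0.61 in intact basal cells. In castrated mice it was 0.20 against 0.32 in luminal cells and 0.39 against 0.61 in basal cells. Genes of smaller spread are called and separate more readily. The part of this in the shares here and below was not tested.

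Higher levels in intact luminal cells were found in every functional class. COPI and ARF contributed 7 of 11 genes, TRAPP 1 of 5, COPII 5 of 12 genes, the p24 family 3 of 7, the cargo lectins 2 of 3, the KDEL receptors 1 of 3, the SNAREs 3 of 6, the tethers and golgins 2 of 4 and the transcription factors 1 of 2. The median log2 difference by class ran from 0.24 for the KDEL receptors to 2.15 for the cargo lectins.

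Among COPII genes the difference fell on particular paralogs. Sec24d, a cargo-selecting subunit, read 4165, 3435 and 3807 on the intact luminal arrays and 619, 709.6 and 607 on the intact basal arrays. These values do not overlap, and the log2 difference was 2.53 ± 0.46 (SE; limma adjusted p = 0.000965). Its paralogs Sec24a (log2 difference -0.56 ± 0.38, adjusted p = 0.33) and Sec24b (-0.71 ± 0.30, adjusted p = 0.111) had negative values that did not pass the test, and Sec24c had 0.99 ± 0.40 (adjusted p = 0.0938). Of the GTPases, Sar1b gave 3968, 3566 and 3537 on luminal and 1216, 1119 and 412 on basal arrays, a log2 difference of 2.13 ± 0.39 (adjusted p = 0.000986). Sar1a, which starts the same coat, gave 13034, 11748 and 9973 on luminal and 12599, 10237 and 12567 on basal arrays, so its groups overlapped (log2 difference -0.03 ± 0.18, adjusted p = 0.942). The inner-coat subunit Sec23b was higher by 1.87 ± 0.42 (adjusted p = 0.00458), and Sec23a had 0.97 ± 0.40 (adjusted p = 0.102) with groups that did not overlap. Sec31a of the outer cage (0.98 ± 0.30, adjusted p = 0.0282) and Sec16a, which marks the ER exit site (0.86 ± 0.25, adjusted p = 0.022), were also higher, and they lost their calls in 4 and 3 of the 12 fits with a single array left out. Differences between paralogs were not themselves tested.

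COPI genes pointed the same way, with all 11 log2 differences above 0 for the probe sets chosen. Copb2, the beta-prime coat subunit, gave 24986, 25053 and 26253 on intact luminal and 9200, 11860 and 7999 on intact basal arrays. Every luminal value lay far above every basal value, and the log2 difference was 1.41 ± 0.17 (adjusted p = 2.46e-05). Copg1, the gamma subunit, read 5977, 6986 and 6757 on luminal and 1829.6, 1917 and 2045 on basal arrays, with no overlap (log2 difference 1.76 ± 0.25, adjusted p = 8.08e-05). Higher in luminal cells by 1.01 to 2.15 were also Copa, Cope, Copz1, Copz2 and Arfgap3, which turns off Arf1. The 4 not called were Copb1 (0.76, adjusted p = 0.0546), the delta subunit Arcn1 (0.47), Arf1 (0.43, adjusted p = 0.0611) and Arf4 (0.12). A second, dim probe set for Copz1 had the opposite sign (-0.33, adjusted p = 0.786). Further probe sets disagreed in sign in a fit over all probe sets. Those of Arf1 had -1.43 (adjusted p = 0.0402) and 0.42 (adjusted p = 0.0986). Those of Arcn1 had -0.83 (adjusted p = 0.118) and 1.19 (adjusted p = 0.0275). Arf4 had -0.69 (adjusted p = 0.0258), -1.07 (adjusted p = 0.265) and 0.23 (adjusted p = 0.748). The Copz1 call was lost without intact luminal array 2 or intact basal array 3.

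Cargo receptors held the lowest adjusted p of the set. Mcfd2, the calcium-binding partner of Lman1 in the export of coagulation factors, gave 4153, 3036 and 3188 on intact luminal and 485, 504 and 664 on intact basal arrays. Its lowest luminal value was far above its highest basal value, and the log2 difference was 2.62 ± 0.31 (6.13-fold, adjusted p = 1.84e-05). Lman1, the mannose-binding lectin of the ER-Golgi intermediate compartment, read 9384, 10076 and 14156 on luminal and 1067, 3246 and 4349 on basal arrays (log2 difference 2.15 ± 0.44, adjusted p = 0.00232). Of the p24 family, which sorts GPI-anchored and other cargo, Tmed3 gave 8294, 8139 and 5624 on luminal and 938, 1732 and 1811 on basal arrays. Its groups lay well apart, by 2.32 ± 0.34 on the log2 scale (adjusted p = 0.000136). Tmed9 gave 33970, 34258 and 42535 on luminal and 17631, 21438 and 23178 on basal arrays, a smaller but tight difference of 0.83 ± 0.14 (adjusted p = 0.000433). Tmed10 was higher by 2.49 ± 0.48 (adjusted p = 0.00132). Tmed5 ran the other way without passing the test (-1.31 ± 0.49, adjusted p = 0.0723), with 482, 451 and 128 on luminal and 735, 1041 and 631 on basal arrays. Another Tmed5 probe set, in a fit over all probe sets, was lower in luminal cells by 2.56 on the log2 scale (adjusted p = 0.00273).

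KDEL receptors catch escaped ER chaperones in the Golgi and return them in COPI vesicles. Kdelr1 gave 2333, 1916 and 2008 on intact luminal and 348, 449 and 428 on intact basal arrays, with every luminal value far above every basal value. Its log2 difference was 2.31 ± 0.36 (adjusted p = 0.000236). Kdelr2 gave 17737, 18699 and 15839 on luminal and 15547, 14377 and 14425 on basal arrays, a narrow gap of 0.23 ± 0.16 (adjusted p = 0.336). Kdelr3 gave 819.6, 591 and 204 on luminal and 318, 685 and 272 on basal arrays, so the groups overlapped (0.24 ± 0.59, adjusted p = 0.831). A second, dimmer Kdelr2 probe set gave a larger difference, 1.09 (adjusted p = 0.0374).

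Vesicle fusion and tethering genes were next. Bet1, a SNARE of ER-to-Golgi vesicles, gave 1139.8, 1537 and 1464 on intact luminal and 109, 136 and 51.1 on intact basal arrays. This was the highest log2 difference of the members, 3.67 ± 0.66 (12.8-fold, adjusted p = 0.000746). A second, dimmer Bet1 probe set gave a smaller difference, 1.10 (adjusted p = 0.25), so the size rests on the probe set chosen. Uso1, the long coiled-coil tether p115, gave 4672, 3669 and 2613 on luminal and 946, 457 and 642 on basal arrays (log2 difference 2.42 ± 0.33, adjusted p = 6.6e-05). The SNAREs Gosr2 (1.73 ± 0.38) and Stx5a (1.47 ± 0.37) and the cis-Golgi golgin Golga2 (1.52 ± 0.49) were also higher. Golga2 lost its call when any of 8 single arrays was left out, including each castrated luminal array, which lies outside this comparison. Among TRAPP subunits, which activate Rab1 at the cis-Golgi, Trappc1 was higher by 2.42 ± 0.59 (adjusted p = 0.0078). Trappc6b had 0.06 ± 0.24 and the 3 remaining subunits 0.69 to 0.89, none of them called.

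The 2 transcription factors of the set are membrane-bound CREB3 family proteins of the ER that are cut in the Golgi to release their active part. Creb3l2, which is known in mouse cartilage to raise Sec23a, gave 3875, 3084 and 3835 on intact luminal and 843, 1587 and 2054 on intact basal arrays (log2 difference 1.34 ± 0.33, adjusted p = 0.00839). Creb3l1 gave 184, 324 and 189 on luminal and 6.52, 356 and 61.8 on basal arrays, a very wide spread within the basal group, and was not called (1.47 ± 0.80, adjusted p = 0.223). Without intact basal array 2 its value was 2.52 (adjusted p = 0.0208). Set against the promoter motifs, the members with a window divide into 23 called higher in luminal cells and 21 not called. TGACGTGG was in 3 and 4 of them, ACGTGG in 12 and 11, and TGACGT in 9 and 8.

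**Figure D2:**
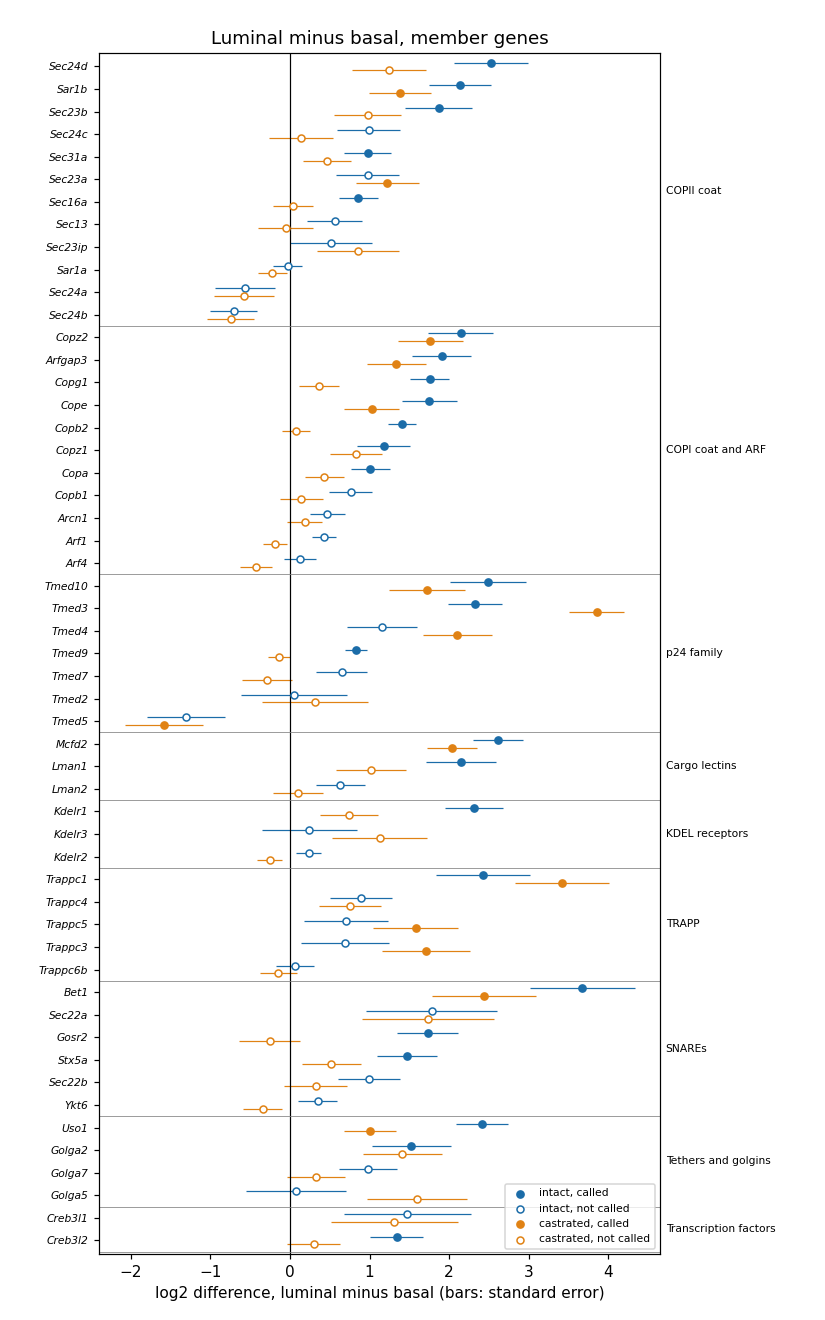
Log2 difference, luminal minus basal, for each member (rows, by function) in intact mice (blue) and in castrated mice (orange), with bars for the standard error from the fit and filled points for members called. In intact mice 25 points are filled, all to the right of 0, and in castrated mice 15 are filled, of which Tmed5 lies to the left.

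The same comparison in castrated mice asks which of these differences are seen without testicular androgen. In castrated mice 14 members were higher in luminal cells and 1 was lower, which is 28.3% of the members against 18.4% of all genes, 11.2% higher and 7.22% lower. The median log2 difference was 0.52 over the members and 0.08 over all genes. Arrays of the luminal and basal groups did not overlap for 29 members, 25 higher and 4 lower (54.7%, against 41.1% of all genes). Of the 14 members higher in luminal cells of castrated mice, 10 were also among the 25 of intact mice, which is 71.4% of the shorter list and 40% of the longer. The other 4, Sec23a, Tmed4, Trappc3 and Trappc5, were not called in the test of the difference between intact and castrated mice.

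Cargo receptors again led. Tmed3 gave 7884, 7502 and 3843 on castrated luminal and 314, 470 and 456 on castrated basal arrays. Its lowest luminal value lay far above its highest basal value, and the log2 difference of 3.85 ± 0.34 (14.5-fold) had the lowest adjusted p of the members, 8.62e-07. Mcfd2 gave 2442, 2340 and 1711 on luminal and 539, 453 and 547 on basal arrays, with no overlap (2.03 ± 0.31, adjusted p = 0.000209). The p24 protein Tmed4 read 2167, 2710 and 2819 on luminal and 1109, 599 and 292 on basal arrays (2.10 ± 0.44, adjusted p = 0.00246), but a second, dim Tmed4 probe set had the opposite sign (-0.78, adjusted p = 0.555). Tmed10, a p24 protein found in both transport directions, gave 2415, 2347 and 2155 on luminal and 678, 881 and 541 on basal arrays (1.72 ± 0.48, adjusted p = 0.0172). Tmed5 was the member lower in luminal cells, with 624, 309 and 468 on luminal and 1761, 1026 and 1468 on basal arrays (-1.59 ± 0.49, adjusted p = 0.0319). Of 4 other Tmed5 probe sets, 1 had the opposite sign. Some probe sets that were not chosen also differed, for members not called here. For Arf1 they had -1.44 (adjusted p = 0.0418) and 0.06 (adjusted p = 0.863). Arf4 had -0.71 (adjusted p = 0.0247), -0.57 (adjusted p = 0.601) and 0.18 (adjusted p = 0.809). For Lman1 they included 1.13 (adjusted p = 0.016), 1.67 (adjusted p = 0.0168) and -0.30 (adjusted p = 0.836).

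Among the remaining functions, Trappc1 gave 1220, 741 and 719 on castrated luminal and 181, 72.4 and 16.5 on castrated basal arrays. The basal values spread widely, yet all lay far below the luminal ones (3.41 ± 0.59, adjusted p = 0.000576). Copz2, a zeta subunit of COPI, gave 1855, 1681 and 1117 on luminal and 411, 545 and 367 on basal arrays (1.76 ± 0.41, adjusted p = 0.0053). Arfgap3 gave 2618, 2376 and 1618 on luminal and 1022, 707 and 834 on basal arrays (1.34 ± 0.37, adjusted p = 0.0183), and its second probe set had the opposite sign (-0.90, adjusted p = 0.517). Bet1 gave 998, 891 and 475 on luminal and 58.7, 59.2 and 492 on basal arrays, so basal array 3 overlapped the luminal group (2.44 ± 0.66, adjusted p = 0.0147). Sar1b, Sec23a, Cope, Trappc3, Trappc5 and Uso1 were higher by 1.01 to 1.71. No KDEL receptor was called: Kdelr1 had 0.74 ± 0.36 (adjusted p = 0.174), Kdelr3 1.13 ± 0.59 (adjusted p = 0.214) and Kdelr2 -0.26 ± 0.16 (adjusted p = 0.294). The count of 15 rested on the castrated luminal arrays, being 6, 5 and 7 without replicate 1, 2 or 3 of that group, and it was 10, 11 and 10 without each castrated basal array. Tmed3, Mcfd2, Trappc1, Tmed4 and Copz2 kept their calls in all 12 fits with a single array left out. Trappc5 lost its call in 9 of the 12, Cope and Uso1 in 7, Sec23a in 6, Sar1b and Trappc3 in 5, Tmed5, Tmed10 and Bet1 in 4 and Arfgap3 in 3. For Trappc5, Cope, Uso1 and Sec23a these included intact arrays, which lie outside this comparison. Each castrated luminal array ended the calls of Cope, Sec23a, Sar1b, Trappc3, Trappc5, Tmed10 and Uso1 when left out.

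Castration in luminal cells was compared next. At 4 weeks after surgery 2 of the 53 members had fallen, 0 had risen and 51 were not called, which is 3.77% of the members against 5.86% of all genes, 2.9% higher and 2.96% lower. The share called was thus near the background. The median log2 difference was -0.31 over the members and -0.09 over all genes, and 39 members were negative. For 24 members the castrated and intact arrays did not overlap, 22 of them lower after castration (45.3%, against 31.8% of all genes; 16.8% of all genes did not overlap and were lower). Unadjusted limma p was below 0.05 for 14 members, but the share over all genes at that limit was not taken, so this count has no background. With each array centred on its median, the members' median was 0.07 and that of all genes 0.29, 0 members were called, and genes called over the whole array shifted from 424 higher and 434 lower to 1021 higher and 252 lower. The members' median lay below that of all genes under both scalings, and the sign of a small difference depends on the scaling.

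Tmed9 had the lowest adjusted p. It gave 33970, 34258 and 42535 on intact luminal and 20039, 22732 and 19038 on castrated luminal arrays, so that all intact values lay above all castrated ones. Tmed9 fell by 0.84 ± 0.14 on the log2 scale (1.79-fold lower, adjusted p = 0.00152) and kept that call when any single array was left out. With quantile normalization it had -0.30 (adjusted p = 0.152) and with median centring -0.46 (adjusted p = 0.147). The measured probe set is of a type that can share probes with other sequences, and the other Tmed9 probe set had -0.53 (adjusted p = 0.193).

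Copb2, read 24986, 25053 and 26253 in intact luminal cells, gave 15817, 19331 and 14013 in castrated luminal cells. The intact values lay close together and above all castrated values, and Copb2 fell by 0.65 ± 0.17 (adjusted p = 0.036). That call was lost when any intact luminal array, or castrated luminal array 1 or 3, was left out, with adjusted p of 0.0737 to 0.187. The second Copb2 probe set had -0.23 (adjusted p = 0.801), and median centring gave -0.27 (adjusted p = 0.456).

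In the main fit the KDEL receptors were all lower without passing the test. Kdelr2 gave 12812, 14636 and 10033 after castration, below its 3 intact values (-0.49 ± 0.16, adjusted p = 0.078). Kdelr1 gave 1536, 1137 and 935, also without overlap (-0.81 ± 0.36, adjusted p = 0.226). Kdelr3 gave 237, 213 and 123, which overlapped the lowest intact value of 204 (-1.26 ± 0.59, adjusted p = 0.256). Array weights, under which 10 members were called, gave calls to Kdelr2 (-0.52, adjusted p = 0.0172) and Kdelr3 (-1.54, adjusted p = 0.0301). The mean of probe sets also gave a call to Kdelr2 (-0.77, adjusted p = 0.0197), whose second probe set had -1.05 (adjusted p = 0.0951). Lman1 read 5490, 5203 and 3235 after castration, below its intact values of 9384 to 14156, and was not called (-1.28 ± 0.44, adjusted p = 0.105). Other values by function were -0.74 ± 0.30 for Sec31a (adjusted p = 0.171), -0.83 ± 0.37 for Stx5a (adjusted p = 0.231), 0.89 ± 0.55 for Trappc3 (adjusted p = 0.41) and -0.51 ± 0.33 for Uso1 (adjusted p = 0.432). Creb3l1 gave 95.0, 49.8 and 42.3 after castration, below its 3 intact values (-1.68 ± 0.80, adjusted p = 0.262), and Creb3l2 had -0.25 ± 0.33 (adjusted p = 0.746). Arfgap3 differed between its probe sets: the brighter had -0.86 ± 0.37 (adjusted p = 0.212), and the other, with a mean of 3213 in intact and 120 in castrated luminal cells, had -4.10 (adjusted p = 0.00575 in a fit over all probe sets). Copa did so too: its chosen probe set had -0.31 ± 0.24 (adjusted p = 0.536). A dimmer Copa probe set, with a mean of 649 in intact and 138 in castrated luminal cells, had -1.97 (adjusted p = 0.0251 in the same fit).

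In basal cells, castration was followed by 3 calls. Gosr2 and Copb2 were higher and Tmed3 lower after castration, which is 5.66% of the members against 2.62% of all genes, 1.12% higher and 1.5% lower. The median log2 difference was 0.16 over the members and -0.11 over all genes, and 32 members were positive. Arrays did not overlap for 11 members, 9 of them higher (20.8%, against 19.8% of all genes, 8.71% higher). With median centring these medians were 0.50 and 0.23, 5 members were called, and calls over all genes shifted from 164 higher and 220 lower to 511 higher and 115 lower.

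Gosr2, the SNARE membrin of the cis-Golgi, gave 517, 334.5 and 376 on intact basal and 1455, 2417 and 1351 on castrated basal arrays. All castrated values lay well above all intact ones, and Gosr2 rose by 2.02 ± 0.38 (4.06-fold, adjusted p = 0.0117). Without castrated basal array 2 the value was 1.76 (adjusted p = 0.0571), and the second Gosr2 probe set had 1.32 (adjusted p = 0.0709). In luminal cells the gene gave 1633, 1563 and 1009 before and 1082, 1152 and 2223 after castration, which overlap (0.03 ± 0.38, adjusted p = 0.973).

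Tmed3, already low in basal cells, moved further down. Its 3 intact basal values of 938, 1732 and 1811 lay above the 3 castrated ones of 314, 470 and 456, and it fell by 1.78 ± 0.34 (3.43-fold lower, adjusted p = 0.0127). The call was kept when any single array was left out. It was lost in a 2-group fit (adjusted p = 0.102), without the intensity trend (adjusted p = 0.061) and with the mean of probe sets (adjusted p = 0.062). A second, dim Tmed3 probe set had -0.97 (adjusted p = 0.446). Copb2 gave 9200, 11860 and 7999 on intact basal and 17652, 15714 and 13217 on castrated basal arrays, without overlap, and rose by 0.69 ± 0.17 (adjusted p = 0.0445). That call was lost in 9 of the 12 fits with a single array left out, with adjusted p of 0.0561 to 0.14. Some of these left out a luminal array, where the log2 value stayed at 0.69 and only the shared variance and the adjustment changed. The median SD over all genes was 0.32 in castrated luminal cells and 0.58 to 0.61 in the other groups. The second Copb2 probe set had 0.67 (adjusted p = 0.385).

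Of the KDEL receptors in basal cells, Kdelr3 gave 318, 685 and 272 before and 102, 83.7 and 50.5 after castration, with no overlap (-2.15 ± 0.59, adjusted p = 0.0644). Kdelr1 gave 778, 933 and 464 after castration, all above the intact values (0.76 ± 0.36, adjusted p = 0.287). Kdelr2 gave 14996, 13757 and 15535 after castration, within the range of overlap with intact cells (-0.0029 ± 0.16, adjusted p = 0.995). The 3 receptors thus had values of different sign, none of them called. Other values were 0.66 ± 0.42 for Sec23b (adjusted p = 0.446), 0.43 ± 0.31 for Lman2 (adjusted p = 0.517), -1.17 ± 0.59 for Trappc1 (adjusted p = 0.318) and 0.90 ± 0.33 for Uso1 (adjusted p = 0.163). Creb3l1 gave 13.6, 27.7 and 5.68 after castration, at the dim end of the array, and Creb3l2 had 0.80 ± 0.33 (adjusted p = 0.213).

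**Figure D3:**
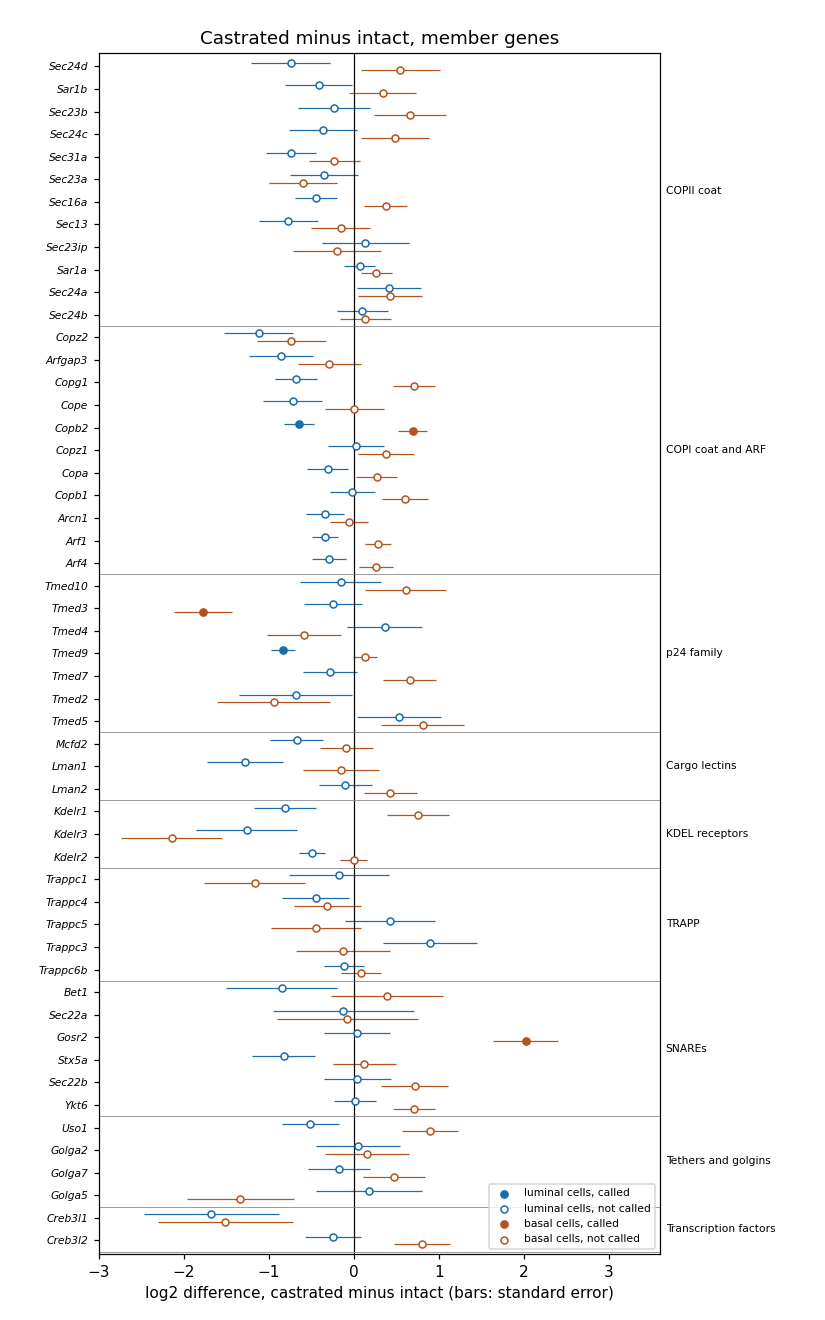
Log2 difference, castrated minus intact, for each member (rows, by function) in luminal cells (blue) and basal cells (brown), with bars for the standard error from the fit and filled points for members called. Most luminal points lie left of their basal partner, and the filled points are Copb2 and Tmed9 in luminal cells and Copb2, Tmed3 and Gosr2 in basal cells.

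Whether the castration effect differed between the cell types was tested as an interaction, the luminal effect minus the basal effect. Copb2 and Tmed9 were called, both with a lower luminal effect, which is 2 of 53 members against 1.15% of all genes, 0.676% higher and 0.471% lower. For Copb2 the difference was -1.34 ± 0.25 (adjusted p = 0.012) and for Tmed9 -0.97 ± 0.20 (adjusted p = 0.0229). Neither call held with quantile normalization, which gave -0.86 (adjusted p = 0.116) and -0.39 (adjusted p = 0.318), and median centring ended that of Tmed9 (-0.93, adjusted p = 0.121). The mean of probe sets ended both calls, with -1.12 (adjusted p = 0.0851) for Copb2 and -0.81 (adjusted p = 0.0923) for Tmed9. Their second probe sets alone had -0.90 (adjusted p = 0.531) for Copb2 and -0.65 (adjusted p = 0.419) for Tmed9. Over the members the median was -0.57, against 0.03 over all genes, and 43 members were negative, including all 11 COPI and ARF genes and all 6 SNAREs. By sign alone, 23 members were lower in luminal and higher in basal cells after castration, 16 lower in both, 9 higher in both and 5 higher in luminal and lower in basal cells. These signs depend on the scaling. In the main fit 14 members were positive in luminal and 32 in basal cells, against 45.6% and 44.2% of all genes. With median centring 31 and 43 were positive, against 64.4% and 61.5% of all genes, and the interaction was negative for 41 members. The luminal minus basal difference was closer to 0 in castrated than in intact mice for 36 of 53 members. The share of all genes was not taken for the pairs of signs or for this last count. The lowest adjusted p in the other classes was 0.34 for Sec16a (-0.82), 0.478 for Lman1 (-1.13), 0.181 for Kdelr1 (-1.57), 0.643 for Trappc3 (1.02), 0.192 for Uso1 (-1.41) and 0.365 for Creb3l2 (-1.04).

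After castration the 2 cell types overlapped for both genes. Copb2 read 15817, 19331 and 14013 in castrated luminal and 17652, 15714 and 13217 in castrated basal cells (0.07 ± 0.17, adjusted p = 0.818). Tmed9 read 20039, 22732 and 19038 in castrated luminal and 21824, 23163 and 22706 in castrated basal cells (-0.13 ± 0.14, adjusted p = 0.559). Copg1, the partner of Copb2 in the coat, had an interaction of -1.39 ± 0.35 (adjusted p = 0.0673) and Gosr2 -1.99 ± 0.54 (adjusted p = 0.099), neither called. Copb2 lost its call without castrated luminal array 3 (-1.23, adjusted p = 0.0512), and Tmed9 lost its call without castrated luminal array 1 or 3 or castrated basal array 2 (-0.95 to -0.91, adjusted p 0.0531 to 0.0852). In the same samples the summed luminal marker signal of luminal cells was 300830 to 312910 before and 150610 to 191160 after castration, with 4 of the 11 markers called lower and 1 higher. Fibroblast and seminal vesicle sums were lower in both cell types after castration, as given above. The leukocyte sum was lower after castration in luminal cells and higher in basal cells. The part of these markers in the result was not tested.

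**Figure D4:**
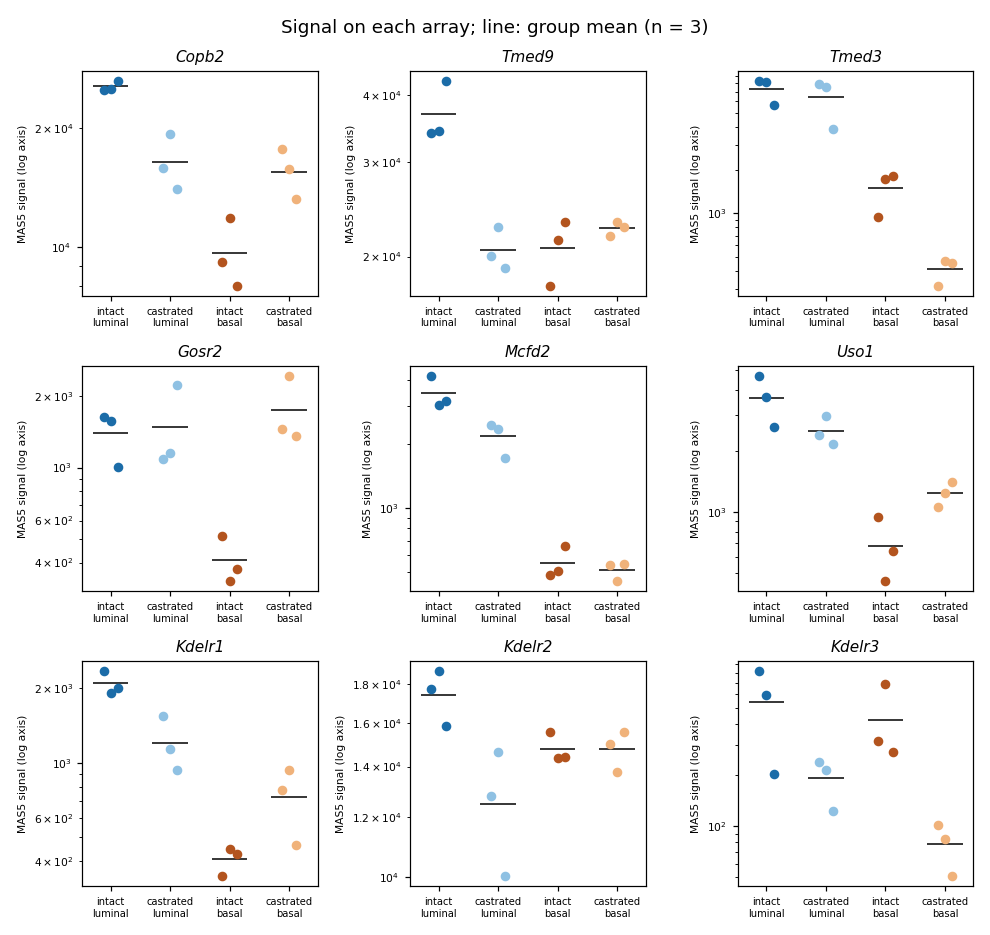
Signal on each array (log axis, arbitrary units) for 9 members in the 4 groups, with a line at each group mean (n = 3). Copb2 and Tmed9 are highest on the 3 intact luminal arrays, Tmed3 is lowest on the 3 castrated basal arrays, Gosr2 is lowest on the 3 intact basal arrays, and the 3 KDEL receptors differ in pattern.

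Group levels of further members, taken where a probe set was the brightest or dimmest of its class, follow. Trappc6b had a mean signal of 3334 ± 310.5 (SD, n = 3) before and 3058 ± 228 after castration in luminal cells, and 3220.4 ± 556 before and 3410 ± 581 after it in basal cells. Ykt6, a SNARE anchored by lipid, had 3297 ± 294, 3328 ± 287, 2610.2 ± 500.3 and 4296 ± 1048 in the same order. Neither gene was called in any comparison. Sar1a had 11585 ± 1537, 12111 ± 1129.8, 11801 ± 1355 and 14337 ± 3290.2, and it was not called either. Copz1, the other zeta subunit, had 1526 ± 166, 1548 ± 56.2, 678 ± 172 and 882 ± 204. Other members had wide spreads: Tmed2 had 178 ± 62.9, 101 ± 15.3, 167 ± 33.6 and 107 ± 83.2 in that order of groups. Sec22a had 411.5 ± 251, 350.2 ± 117, 104 ± 52.6 and 160.4 ± 149.8, and Golga5, a Golgi-membrane golgin, had 477 ± 258, 473 ± 36.1, 488 ± 416 and 163 ± 104. None of these 3 was called in any comparison, and their standard errors of 0.63 to 0.83 on the log2 scale limit what 3 arrays a group can show.

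Genes of the same pathway outside the set were taken from a list of 70, of which 68 were tested. In intact mice 22 were higher in luminal cells and 0 lower, with a median log2 difference of 1.01. Over all genes 11.0% were higher and 8.45% lower, with a median of 0.07. Ergic1, a cycling protein of the intermediate compartment, was higher by 1.25 ± 0.19 (adjusted p = 0.000198). Tfg, which organises ER exit sites, was higher by 2.11 ± 0.37, Gbf1, the exchange factor for Arf1, by 2.05 ± 0.38, and Mia3, a receptor for bulky cargo such as collagen, by 1.35 ± 0.26. In castrated mice 15 were higher in luminal cells and 1 lower, with a median of 0.71, against 11.2% higher, 7.22% lower and a median of 0.08 over all genes. They included Ergic1 (1.90), Mia2 (3.04), Tfg (1.96) and Xbp1 (1.54), the unfolded protein response factor, and the gene lower in luminal cells was Use1 (-1.09), an ER SNARE.

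After castration 2 of the 68 were called in luminal cells and 1 in basal cells, beside 5.86% and 2.62% of all genes. In luminal cells Mia2 rose by 2.27 ± 0.51 (adjusted p = 0.0126) and Mia3, its relative at ER exit sites, fell by 1.44 ± 0.26 (adjusted p = 0.00221), with a median of -0.19 over the 68 and -0.09 over all genes. In basal cells Ergic1 fell by 0.93 ± 0.19 (adjusted p = 0.0177) and no gene rose, with a median of 0.05 over the 68 and -0.11 over all genes. Mia2 was also the gene called in the interaction, 3.16 ± 0.72 (adjusted p = 0.0435).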

How the data were processed

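RNA of sorted cells was amplified with a NuGEN kit and biotin-labelled, per the labels' protocols. The signal intensity deposited by the authors for 45101 probe sets on 12 arrays is MAS5 signal, as the submitters' processing notes record; the MAS5 version is not given in the sources used here. Detection calls were not used here.

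From these values log2(signal + 16) was taken. After removing 64 controls, 34945 probe sets had 1 gene symbol in the platform annotation, 932 had several and 9160 had none here. Genes above an array's 40th percentile on at least 3 arrays were kept, with 1 probe set a gene, the brightest on average. limma 3.58.1 (R 4.3.3) estimated the 4 groups' means in a common model (variance trend with intensity, 8 residual degrees of freedom, Benjamini-Hochberg adjustment over 14645 genes, call below 0.05), after the script had been tested on simulated data. Values after ± are standard errors of the fit unless SD is written. Second probe sets were fitted together with all probe sets. Plots used matplotlib 3.10.9, and tables pandas 2.3.3 and numpy 2.4.6 under Python 3.11.15. Promoter windows were RefSeq's, build GRCm38.p6.

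Replicates are distinct sets of mice, 3 a group, and the number of arrays limits the precision. The p-values rest on a spread per gene that is shared over the 4 groups and drawn towards the intensity trend. They do not measure the spread of the compared groups alone. That spread was unequal, with a median SD over all genes of 0.32 in castrated luminal cells and 0.58 to 0.61 in the other groups. The design notes call the intact animals paired, but deviations of same-numbered arrays in different groups correlated at -0.00723 to 0.0258 over 18 pairs, and the labels do not tie a number to a day or litter, so the main fit has no block. Alternatives tried were normalization, the added constant, the low-signal filter, a 2-group fit, no variance trend, the mean of probe sets, array weights, replicate blocks and left-out arrays.

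The members and all lists were chosen with earlier results of these data known. Named with all array values were up to 8 called members per comparison by lowest adjusted p; named with group values were all KDEL receptors, both CREB3 family members and, per class, the members with the highest and lowest level and the lowest adjusted p; and up to 4 pathway genes per comparison. Tmed5, single paralogs and second probe sets were added after their values were seen.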

Additional observations from a re-analysis of the deposited data

Results flagged for a closer look

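For 2 members the effect of castration differed between luminal and basal cells by a test of the difference itself. Copb2 had a luminal minus basal castration effect of -1.335 on the log2 scale: it fell in luminal cells and rose in basal cells, and all 3 arrays of a castrated group lay on 1 side of the intact group in each cell type. Such separation was common: 31.8% of all genes did not overlap in luminal cells and 19.8% in basal cells. Tmed9 had -0.9669: it fell in luminal cells, and its basal values overlapped before and after castration. With quantile normalization Copb2 had -0.8597 (adjusted p = 0.116) and Tmed9 -0.3906 (adjusted p = 0.318), and without the intensity trend the adjusted p was 0.231 and 0.364, so neither call held. Over 26 alternatives Copb2 lost its call in 6 and Tmed9 in 10. Each call rested on the probe set chosen. The second Copb2 probe set had an interaction of -0.904 (adjusted p = 0.531) and that of Tmed9 -0.651 (adjusted p = 0.419).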

How the results depend on the processing

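Across 27 alternatives (26 for the interaction), no called value among the 70 single-member results changed sign (0), 214 values lost a call and 9 gained a call. The count of members called in luminal cells after castration was 2. It became 0 with quantile normalization, 0 with median centring, 0 without the intensity trend, 5 with the mean of probe sets and 10 with array weights. In basal cells the count of 3 became 5 with median centring, 0 in a 2-group fit and 1 without the trend. In castrated mice the luminal to basal count of 15 became 7 without the trend. The interaction count of 2 became 0 with quantile normalization, 1 with median centring, 0 without the trend and 1 with the mean of probe sets. The 1 member called with the mean of probe sets was neither Copb2 (adjusted p = 0.0851) nor Tmed9 (adjusted p = 0.0923). Apart from the trend, array weights and left-out arrays, which change the variance or the samples by construction, the cause was not tested. With single arrays left out, the counts ranged from 1 to 3 (luminal castration), 1 to 4 (basal castration), 21 to 28 (intact luminal to basal), 5 to 16 (castrated luminal to basal) and 0 to 3 (interaction). Leaving out 1 replicate number in every group gave 1 to 1, 0 to 3, 13 to 28, 4 to 15 and 0 to 1. With the replicate number as a block the counts were 2, 4, 25, 12 and 2; the block gave Kdelr3 a call in basal cells (-2.15, adjusted p = 0.04996) and took the calls of Cope, Trappc5 and Uso1 in castrated mice (adjusted p 0.0523 to 0.061). Same-numbered arrays did not deviate together, but this cannot show whether luminal and basal cells came from the same mice. The pairing named in the design notes was thus not settled.

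Limits are set by 3 arrays a group, by amplified RNA and by a signal scale without detection calls: dim members such as Creb3l1, Sec22a and Tmed2 had standard errors of 0.67 to 0.83.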
